A study of Mus musculus with 9 samples.

Results

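The transcripts described here are the retained-intron transcripts of mouse testis: transcripts that the GENCODE M21 annotation (genome build GRCm38) classes as retained_intron and whose mean level over the 9 testes of the study was at least 1 TPM (a level scaled for transcript length and for library size). Of 96626 transcripts quantified, 16553 had this class, and 6121 of those reached the threshold and are called members below. They belong to 3507 parent genes, of which 2048 have 1 member and 1459 have 2 or more. The members were chosen by their mean TPM over all 9 testes, so the abundance of the members is a description and was not tested. Just inside the threshold lay Axl-205, with a mean of 1.0001 TPM, and just outside lay Adam17-208 and Ptcd3-210, with 0.99995 and 0.9998 TPM. The study compared whole testes of 3 genotypes, 3 each, from male C57Bl6/N mice aged 15 weeks: wildtype (WT), Kpna6 ΔIBB/ΔIBB and Kpna6-/-. Kpna6 encodes importin α7, an adapter that carries proteins with a nuclear localization signal into the nucleus. In ΔIBB/ΔIBB mice exon 2 is deleted, and a shortened mRNA encodes a protein without the importin β binding domain. In -/- mice a gene trap in intron 1 removes the protein from most tissues, but a testis-specific first exon downstream of the trap still gives full-length protein in germ cells, so that these animals are no full knockout of the testis.

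Introns are removed from a pre-mRNA by the spliceosome, which joins a 5′ splice site, usually GT, to a 3′ splice site, usually AG. A transcript that keeps an intron often carries a premature stop codon. Such RNA may stay in the nucleus, be degraded in the cytoplasm by nonsense-mediated decay, or be spliced later, and in germ cells intron-retaining RNAs are known to be stored and used after transcription has slowed. In the annotation the class is broad: it covers RNAs that keep an intron from end to end and also short RNAs that begin or stop inside one.

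**Figure D1:**
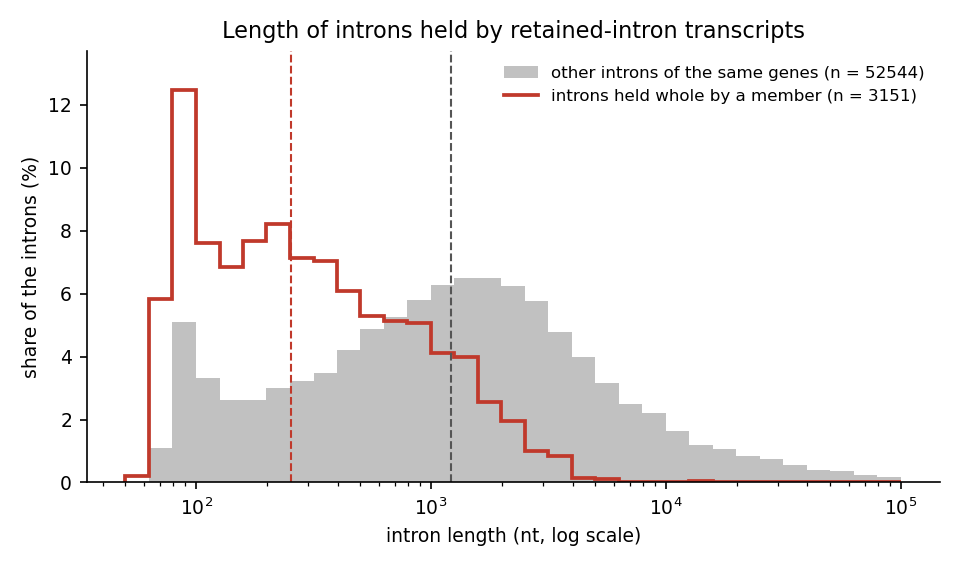
Length of the 3151 distinct introns held whole by at least 1 member (red outline) and of 52544 other introns of protein-coding transcripts of the same genes (grey), as a share of each set in percent, on a log axis in nucleotides. Dashed lines mark the medians, 254 nt for the introns held and 1217 nt for the others.

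Both kinds are shown here in sequence, because the class name describes only the first. Intron 1 of Rps20, on the minus strand at chr4:3835292-3835483 (GRCm38), is kept whole in Rps20-201, 1 of the 10 most abundant members. Intron 15 of Hnrnpk, minus strand, chr13:58393775-58393852, is kept in Hnrnpk-217, the most abundant member of a splicing-factor gene. Introns 1 and 3 of Aup1, plus strand, chr6:83054833-83054910 and chr6:83055280-83055505, are kept in Aup1-215, a member that rose in ΔIBB/ΔIBB testes. Intron 10 of Camsap3, plus strand, chr8:3602426-3602553, and intron 7 of Rbm28, minus strand, chr6:29154894-29155026, are kept in members that were lower in ΔIBB/ΔIBB than in -/- testes. Each is given 5′ to 3′ on the strand of its gene, between coding exons, with its first and its last 2 bases in capitals.
Rps20-201, intron 1: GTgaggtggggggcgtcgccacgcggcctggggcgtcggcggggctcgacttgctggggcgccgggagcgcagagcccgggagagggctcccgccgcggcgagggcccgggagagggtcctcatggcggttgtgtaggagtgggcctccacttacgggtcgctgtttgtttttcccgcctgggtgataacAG
Hnrnpk-217, intron 15: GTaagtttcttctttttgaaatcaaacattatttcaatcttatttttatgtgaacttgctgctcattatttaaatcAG
Aup1-215, intron 1: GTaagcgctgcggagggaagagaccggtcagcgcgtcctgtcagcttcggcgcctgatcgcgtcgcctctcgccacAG
Aup1-215, intron 3: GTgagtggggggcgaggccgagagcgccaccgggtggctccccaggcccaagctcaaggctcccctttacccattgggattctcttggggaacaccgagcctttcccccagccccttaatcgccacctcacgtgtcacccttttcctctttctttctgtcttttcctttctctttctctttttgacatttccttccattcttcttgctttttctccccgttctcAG
Camsap3-211, intron 10: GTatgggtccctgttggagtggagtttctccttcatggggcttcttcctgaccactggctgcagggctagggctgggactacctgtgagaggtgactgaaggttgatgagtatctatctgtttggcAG
Rbm28-203, intron 7: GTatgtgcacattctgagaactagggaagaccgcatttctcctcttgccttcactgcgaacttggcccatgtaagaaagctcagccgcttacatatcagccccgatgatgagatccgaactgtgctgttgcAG

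All 6 begin with GT and end with AG. Their composition ranged from 24.4% G and C in the 78 nt intron of Hnrnpk to 71.9% in the 192 nt intron of Rps20. The other kind of member is shown by the edge between exon and intron that it carries. Tra2a-203 (minus strand, chr6:49263798-49263852) and Hdac1-204 (minus strand, chr4:129528887-129528941) run over a 5′ splice site and stop in the intron. Hspa4l-207 (plus strand, chr3:40784189-40784243), Vps36-202 (plus strand, chr8:22217085-22217139), Tmem120a-203 (minus strand, chr5:135736488-135736542), Cdkn1c-204 (minus strand, chr7:143459236-143459290) and S100pbp-212 (minus strand, chr4:129180257-129180311) start in an intron and run over its 3′ splice site. The 55 bases printed hold 40 of the intron and 15 of the coding exon, with the splice-site dinucleotide in capitals.
Tra2a-203, edge of exon and intron 1: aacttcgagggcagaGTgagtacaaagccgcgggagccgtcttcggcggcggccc
Hdac1-204, edge of exon and intron 3: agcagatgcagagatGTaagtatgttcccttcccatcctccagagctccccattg
Hspa4l-207, edge of intron 14 and exon: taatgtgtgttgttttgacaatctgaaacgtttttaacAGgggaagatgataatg
Vps36-202, edge of intron 11 and exon: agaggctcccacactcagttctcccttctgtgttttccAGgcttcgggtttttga
Tmem120a-203, edge of intron 7 and exon: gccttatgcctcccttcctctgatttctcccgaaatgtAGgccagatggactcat
Cdkn1c-204, edge of intron 1 and exon: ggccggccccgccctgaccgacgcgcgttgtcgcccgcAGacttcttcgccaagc
S100pbp-212, edge of intron 5 and exon: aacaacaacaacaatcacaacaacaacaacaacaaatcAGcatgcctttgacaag

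The class label was checked against the exon structures. A whole intron of another transcript of the gene lay inside an exon of 1945 members (31.8%), with 1 intron in 1175 of them, 2 or more in 770 and at most 22. A further 1512 members (24.7%) ended in an intron, 1709 (27.9%) started in one and 926 (15.1%) did both, and 29 showed none of these patterns. No whole intron was found in 4176 of the 6121 members. The members were short, with a median of 784 nt and a range from 148 to 19300 nt. Whole-intron members were longer, with a median of 1335 nt against 664 to 732 nt in the 3 intronic-end classes.

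The introns held whole were shorter than the other introns of protein-coding transcripts of the same genes, with a median of 254 nt (quartiles 117 and 628) against 1217 nt (quartiles 409 and 3044). The 2 sets were not drawn alike. Introns held came from transcripts of any class but retained_intron, and introns held only in part were counted with the others. Under 200 nt were 41.5% of the introns held and 14.8% of the others. Their place in the transcript was close to that of the others: 15.4% were first introns, as were 15.4% of the others, and 11.7% were last introns against 12.7%. Of those held, 97.5% were GT-AG and 1.53% GC-AG introns, their median content of G and C was 51.8%, and 75.7% lay between coding sequence on both sides. These are features of the annotation and of what is expressed in testis, not of a genotype. Among the members with 1 whole intron, the median level was 2.47 TPM for introns under 120 nt and 2.02 TPM for those of 600 nt or more, and the median share of the parent gene was 5.50% and 7.67%.

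The members were mostly minor products of their genes. The median level was 2.45 TPM (quartiles 1.52 and 4.88), and 672 members reached 10 TPM and 33 reached 100 TPM. The 10 most abundant members held 9.03% of the summed TPM of all members, and the first 100 held 29.5%. The median share of the parent gene's TPM was 7.62% (quartiles 3.35 and 15.9). In 239 members the share was at least 50%, and in 29 at least 90%. Added up per gene, the members took a median of 16.3% of the TPM, and 380 of the 3507 genes had at least 50% of their TPM in members. Eif4a2, an RNA helicase of translation initiation, had the most members, 11, with means from 1.40 to 9.41 TPM that together made 24.2% of the TPM of the gene.

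The most abundant member was Ybx2-203, from the gene of a germ-cell protein that binds and stores mRNAs. Its level was 457, 512 and 499 TPM in WT, 571, 560 and 623 TPM in ΔIBB/ΔIBB and 537, 483 and 506 TPM in -/- testes. The ΔIBB/ΔIBB values lay above all others, but the difference from WT did not pass the test (log2 fold change 0.15 ± 0.06 SE, adjusted P = 0.195, edgeR quasi-likelihood test with Benjamini-Hochberg adjustment over all transcripts). Rps20-201, from the gene of a protein of the small ribosomal subunit, stood at 440, 452 and 421 TPM in WT, 452, 427 and 459 TPM in ΔIBB/ΔIBB and 451, 444 and 429 TPM in -/- testes, with the groups overlapping. It made up 82.2% ± 0.956 of the TPM of Rps20 in WT (SD, n = 3), 80.8% ± 0.795 in ΔIBB/ΔIBB and 82.3% ± 0.660 in -/- testes. Ribosomal protein genes have near-identical processed pseudogenes, so the assignment of their reads is uncertain. Myl10-206, from a myosin light chain gene, took a like share of its gene, 82.7% to 82.9% in the 3 genotypes. The next in level were Tcp1-210, from the gene of a chaperonin subunit, Psmf1-205, from the gene of a proteasome inhibitor, and Ccdc30-206, at 312 to 498, 313 to 379 and 307 to 353 TPM over the 9 testes. None of them was called in any comparison.

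Members with nearly all of the TPM of their gene were Tmem82-203, Lrrc7-203, Dock2-207, Map4k1-204 and Vps36-202. Dock2 and Map4k1 are best known as signalling genes of blood cells. Dock2-207 spans part of a large gene and stood at 54.4, 53.5 and 51.8 TPM in WT, 45.9, 49.5 and 47.5 TPM in ΔIBB/ΔIBB and 51.1, 53.8 and 49.9 TPM in -/- testes, 93.9% to 95.1% of the gene. Its ΔIBB/ΔIBB values lay below those of both other genotypes (log2 fold change against WT -0.27 ± 0.05, adjusted P = 0.0197, edgeR), a call that was lost with a replicate block (0.0654) and without single testes (up to 0.0739, without WT replicate 2). Tmem82-203 (98.1% to 98.4% of its gene) read 108, 110 and 114 TPM in WT, 101, 99.7 and 103 TPM in ΔIBB/ΔIBB and 115, 119 and 119 TPM in -/- testes, a change of -0.24 ± 0.04 against WT (edgeR, adjusted P = 0.0102). On the log2(TPM + 1) scale with limma neither call held, at -0.13 for Tmem82-203 (adjusted P = 0.101) and -0.16 for Dock2-207 (adjusted P = 0.107). Both overlap an antisense gene, AI507597 for Tmem82-203 and 4930403D09Rik for Dock2-207, and reads of a gene and of its antisense partner cannot be told apart here. Of all members, 980 overlap an exon of another gene, 706 of them on the opposite strand.

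Total estimated counts ran from 24859751 to 31484692 per testis, of which members took 631491 to 769778. The targeted gene was checked first. Kpna6 stood at 98.3, 163 and 176 TPM in WT, 32.0, 34.2 and 34.8 TPM in ΔIBB/ΔIBB and 134, 137 and 141 TPM in -/- testes. WT replicate 1 lay between the ΔIBB/ΔIBB and the other WT testes and below all -/- testes, for a reason that was not tested. Kpna6 fell in ΔIBB/ΔIBB (log2 fold change -1.79 ± 0.15 against WT, adjusted P = 1.94e-05, edgeR) and did not pass in -/- testes (-0.18 ± 0.14, adjusted P = 0.586), where the germ-cell transcript hides the trap, so its level does not check that label. In ΔIBB/ΔIBB against WT, all 12 Sertoli cell markers were higher, with summed levels of 1790 to 2138 TPM against 1081 to 1208 TPM in WT and 1318 to 1401 TPM in -/- testes, and no defining marker was at 0. All 10 elongating spermatid markers were lower, at 60591 to 68761 TPM against 72288 to 82567 TPM, as were all 6 round spermatid markers. Of 6 markers each, 3 of macrophages, 3 of peritubular and endothelial cells and 1 of Leydig cells were higher, 2 of spermatogonia were higher and 1 lower, and 2 of pachytene spermatocytes were lower. In whole testis, fewer cells of a type and less RNA per cell cannot be told apart. By microscopy the study counted fewer Sertoli cells and fewer round spermatids in adult testes of both mutants. It also found mRNA of the elongating spermatid markers Tnp1, Tnp2, Prm1 and Prm2 reduced in sorted round spermatids of ΔIBB/ΔIBB mice. The ΔIBB/ΔIBB replicate 3 held 165 TPM of 6 epididymis markers, against 1.53 to 15.6 TPM in the other 8 testes, and counts without it are given with the results.

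Summed over all members, the level was slightly higher in ΔIBB/ΔIBB testes. Members took 3.72% ± 0.0540 of all TPM in WT (SD, n = 3), 3.92% ± 0.0802 in ΔIBB/ΔIBB and 3.71% ± 0.0229 in -/- testes. The lowest ΔIBB/ΔIBB testis, at 3.83%, lay above the highest WT testis (3.76%) and the highest -/- testis (3.73%). Because the threshold itself uses the ΔIBB/ΔIBB values, the same sum was taken over all 16553 transcripts of the class: it was 40297 ± 477 TPM in WT, 42620 ± 861 TPM in ΔIBB/ΔIBB and 40073 ± 141 TPM in -/- testes, and the groups again did not overlap. The parent genes moved too. Their summed TPM was 286580 ± 3021 in WT, 296889 ± 1051 in ΔIBB/ΔIBB and 286265 ± 1620 in -/- testes. Within the parent genes the share of the members was 13.0% ± 0.0952, 13.2% ± 0.266 and 12.9% ± 0.0763, and these ranges overlapped. The higher sum of the members went with a higher sum of their genes, and a difference of the share within the genes was not detectable beyond the spread between testes.

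**Figure D2:**
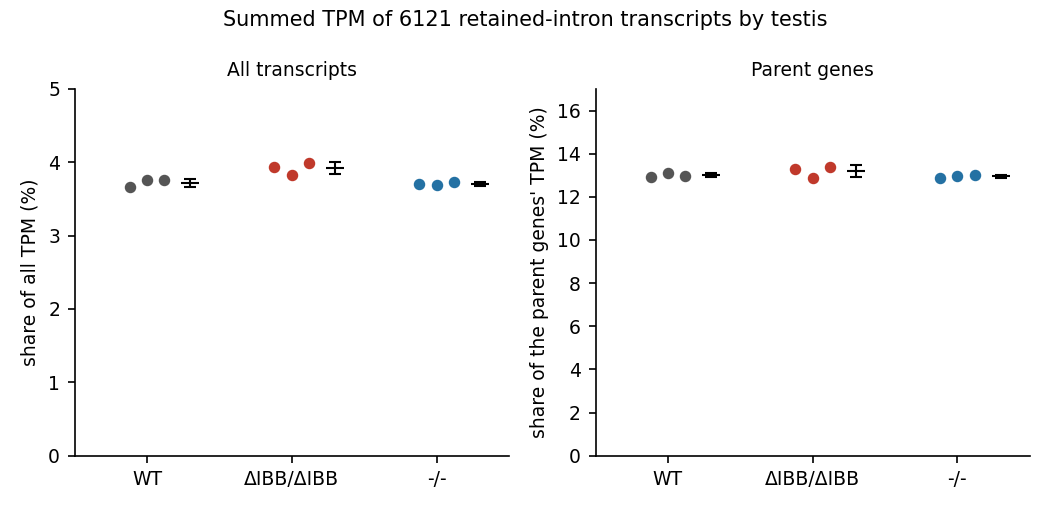
Summed TPM of the 6121 members in each testis as a percentage of all TPM (left) and of the TPM of their parent genes (right). Points are the 3 testes of a genotype, and bars show the mean and SD. In the left panel the ΔIBB/ΔIBB testes, 3.83% to 3.99%, lie above the others, and in the right panel all 3 genotypes overlap, at 12.9% to 13.4%. On the TPM scale the median of all transcripts was also higher in ΔIBB/ΔIBB than in WT.

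The number of members at 1 TPM or more was 5403 to 5451 in WT, 5594 to 5636 in ΔIBB/ΔIBB and 5349 to 5462 in -/- testes. These counts, too, are on the TPM scale, on which the median of all transcripts was higher in ΔIBB/ΔIBB. By group means, 5241 members reached 1 TPM in all 3 genotypes. The remaining 880 reached it in 1 or 2, among them 124 in ΔIBB/ΔIBB only, 43 in WT only and 26 in -/- only.

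The first comparison, ΔIBB/ΔIBB against WT, asks what the loss of full-length importin α7 in both Sertoli and germ cells goes with. At an adjusted P below 0.05, 160 of 5490 members tested (2.91%) were called, 54 higher and 106 lower, where 9.73% of all 47090 transcripts tested were called, 3.93% higher and 5.8% lower (edgeR quasi-likelihood test on rounded estimated counts, Benjamini-Hochberg over all transcripts). The rest of the 6121 members had too few counts to be tested. The called members came from 153 genes and 52 members differed more than 2-fold. The median log2 change was 0.02 over members tested and 0.01 over all transcripts tested. The share called lay below the background, and members also had fewer reads and more spread. The median within-group coefficient of variation was 21.8% for members against 10.6% for protein-coding transcripts at the same threshold. At 500 or more mean counts 18.7% of 235 members were called, against 28.1% of protein-coding transcripts, and at under 50 counts 0.646% against 1.51%. Leaving out single testes lowered the count, to 53 and 56 without ΔIBB/ΔIBB replicates 1 and 2, to 105, 60 and 66 without WT replicates 1, 2 and 3, and to 110 without ΔIBB/ΔIBB replicate 3. The split between directions depended on the scaling: it was 54 higher and 106 lower with TMM scaling, 86 and 84 with library size only, and 139 and 71 with limma on log2(TPM + 1), where the median of all transcripts shifted from 0.01 to 0.09 and 0.07.

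**Figure D3:**
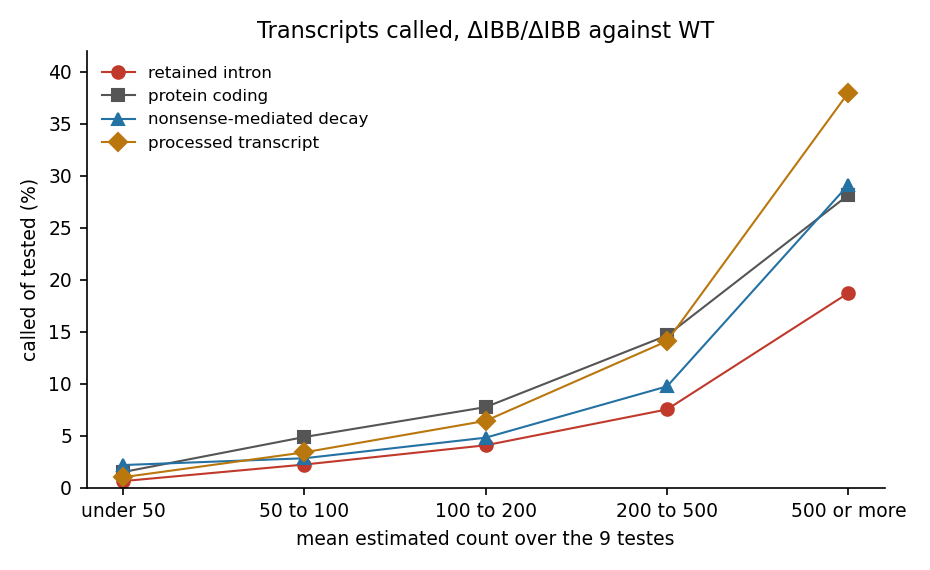
Percentage of transcripts called in ΔIBB/ΔIBB against WT (y axis) by mean estimated count over the 9 testes (x axis) for 4 transcript classes. The share called rises with the count in each class, and the retained-intron class (red) reaches 18.7% at 500 counts or more, against 28.1% for protein-coding transcripts.

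Members that were lower in ΔIBB/ΔIBB testes included several with high counts. Tra2a-203 had the smallest adjusted P of all members in this comparison. It comes from the gene of an SR-like splicing regulator, holds the first 3595 nt of intron 1 after its 5′ splice site, and read 7.58, 8.59 and 9.74 TPM in WT, 3.56, 3.74 and 3.91 TPM in ΔIBB/ΔIBB and 10.2, 9.47 and 8.67 TPM in -/- testes. The ΔIBB/ΔIBB values lay below all others (log2 fold change -1.31 ± 0.10, adjusted P = 0.00252, edgeR), and the gene as a whole changed by -0.25. Its share of the gene was 13.6% ± 0.977 in WT, 5.97% ± 0.570 in ΔIBB/ΔIBB and 14.9% ± 0.705 in -/- testes.

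Hspa4l-207, from the gene of an Hsp110-type chaperone abundant in spermatids, stood at 299, 282 and 272 TPM in WT, 214, 216 and 212 TPM in ΔIBB/ΔIBB and 262, 288 and 280 TPM in -/- testes. It fell by 0.52 on the log2 scale (SE 0.05, adjusted P = 0.00318, edgeR), while the gene fell by 0.19. Vps36-202, from the gene of an ESCRT-II subunit of endosomal sorting, read 75.6, 67.5 and 82.2 TPM in WT, 46.8, 43.8 and 49.7 TPM in ΔIBB/ΔIBB and 65.1, 78.4 and 70.9 TPM in -/- testes. Its ΔIBB/ΔIBB values did not overlap those of the other genotypes (-0.79 ± 0.11, adjusted P = 0.00723, edgeR). Its share of the gene was 94.4% ± 0.507 in WT and 89.3% ± 1.15 in ΔIBB/ΔIBB. Tmem120a-203 read 10.8, 10.3 and 11.5 TPM in WT, 3.46, 3.16 and 4.44 TPM in ΔIBB/ΔIBB and 11.2, 12.8 and 11.2 TPM in -/- testes. Here the member moved alone: it changed by -1.66 ± 0.20 (adjusted P = 0.00516, edgeR) and its gene by -0.02, and the share went from 10.2% ± 0.287 in WT to 3.35% ± 0.658.

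Cdkn1c-204 followed its gene, which encodes a cyclin-dependent kinase inhibitor. It read 52.9, 47.9 and 39.9 TPM in WT, 13.7, 18.9 and 10.3 TPM in ΔIBB/ΔIBB and 39.8, 39.5 and 44.8 TPM in -/- testes, well separated (-1.82 ± 0.25, adjusted P = 0.00792, edgeR, gene -1.42). Eif4g1-210, from the gene of the scaffold protein of the cap-binding complex, read 83.6, 91.7 and 104 TPM in WT, 72.5, 68.2 and 69.1 TPM in ΔIBB/ΔIBB and 96.0, 94.7 and 90.5 TPM in -/- testes (-0.52 ± 0.07, adjusted P = 0.00648, edgeR). Qrich2-203, from a gene of the sperm flagellum, and Wdr47-206 were also among the 5 with the largest falls, at -2.52 ± 0.55 and -1.90 ± 0.34. Their levels were low, 0.346 to 1.64 TPM and 0.701 to 0.946 TPM in ΔIBB/ΔIBB testes. Neither call held with a replicate block (adjusted P = 0.0698 and 0.0792, edgeR) or without single testes (up to 0.114 and 0.0832, both without WT replicate 2), and that of Wdr47-206 was also lost with all 9 samples in 1 fit (0.39).

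Members that were higher in ΔIBB/ΔIBB testes were mostly of low level. Aup1-215, from the gene of a lipid droplet and endoplasmic reticulum protein, rose from 1.36, 1.29 and 1.76 TPM in WT to 5.59, 4.43 and 4.32 TPM in ΔIBB/ΔIBB, with 3.24, 4.12 and 1.73 TPM in -/- testes (1.60 ± 0.19, adjusted P = 0.00516, edgeR, gene -0.02). It overlaps exons of Htra2 on the opposite strand. Sri-201, from the gene of the calcium-binding protein sorcin, read 3.16, 3.30 and 2.52 TPM in WT, 11.6, 8.61 and 8.09 TPM in ΔIBB/ΔIBB and 2.14, 4.97 and 3.65 TPM in -/- testes (1.53 ± 0.24, adjusted P = 0.0112, edgeR), and its gene rose by 0.93.

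Axl-206 belongs to a receptor tyrosine kinase of the family by which Sertoli cells take up dying germ cells. It read 0.573, 0.428 and 0.509 TPM in WT, 1.92, 2.36 and 1.84 TPM in ΔIBB/ΔIBB and 0.713, 0.612 and 0.492 TPM in -/- testes (1.91 ± 0.38, adjusted P = 0.0247, edgeR, gene 0.45), with 6.13 mean estimated counts in WT. Sipa1l3-205 and Clip3-204 changed by 1.88 ± 0.37 and 1.78 ± 0.39, at 2.06 to 3.82 TPM and 2.19 to 3.47 TPM in ΔIBB/ΔIBB testes. None of these 3 calls held without single testes: the adjusted P rose to 0.12 for Axl-206 without ΔIBB/ΔIBB replicate 2, to 0.0935 for Sipa1l3-205 without WT replicate 2 and to 0.141 for Clip3-204 without ΔIBB/ΔIBB replicate 1 (edgeR). All 12 Sertoli cell markers were higher in the same testes, and their part in these changes was not tested.

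**Figure D4:**
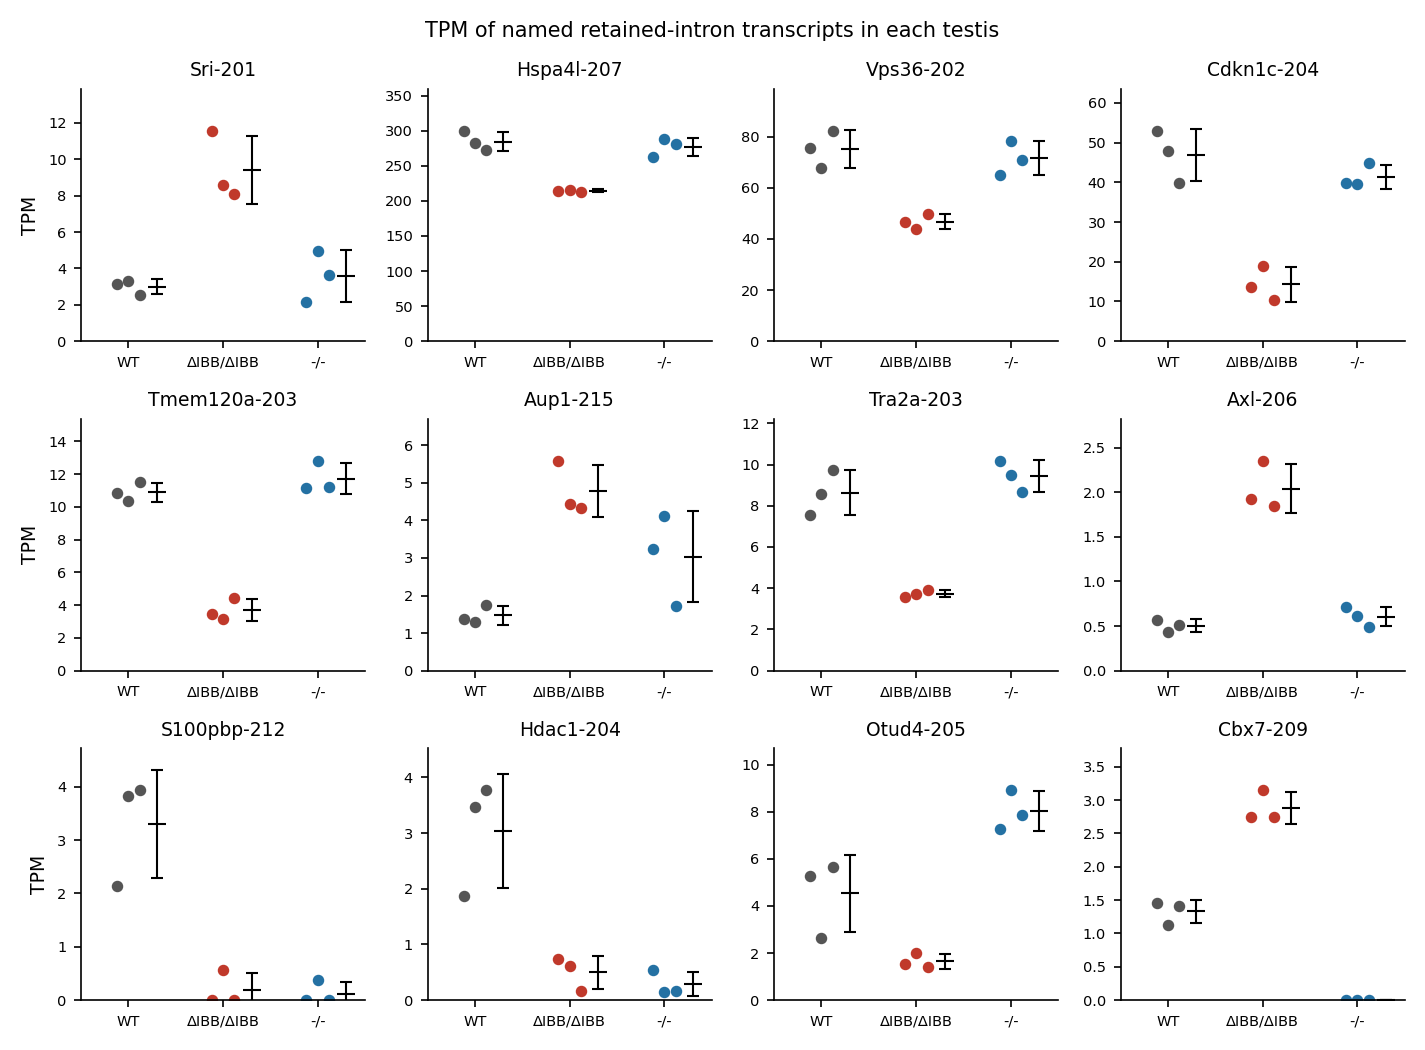
TPM of 12 named members in each testis of the 3 genotypes, with mean and SD to the right of the points. Each panel has its own y axis, which starts at 0. Tra2a-203, Hspa4l-207, Vps36-202, Cdkn1c-204 and Tmem120a-203 are lower in ΔIBB/ΔIBB than in both other genotypes and Axl-206 and Sri-201 are higher, while S100pbp-212 and Hdac1-204 are low in both mutants.

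The calls were then set against the parent genes. Of the 160 called members, 126 had a gene called in the same direction, 31 a gene that was not called and 3 a gene called in the opposite direction. Counts of a member are part of the counts of its gene, so the 2 values are not independent. Of the 3507 parent genes 1514 (43.2%) were called, 737 higher and 777 lower, against 36.6% of all genes tested (17.7% higher and 18.9% lower). The 3 opposite cases, picked out after their values were seen, were Wnk1-208, Aldoa-209 and Ankrd11-204. Wnk1 encodes a kinase that controls ion transport, and Wnk1-208 read 27.3, 32.0 and 33.6 TPM in WT, 50.8, 49.7 and 45.9 TPM in ΔIBB/ΔIBB and 30.9, 34.6 and 32.3 TPM in -/- testes. The member rose by 0.55 ± 0.07 (adjusted P = 0.00713, edgeR) while the gene fell by 0.18 on the log2 scale, and the share went from 32.4% ± 1.88 to 45.7% ± 0.10. Aldoa-209, from the gene of the glycolytic enzyme aldolase A, rose by 0.55 ± 0.13 (adjusted P = 0.0468, edgeR) from 7.18 to 7.84 TPM in WT to 11.1 to 12.2 TPM in ΔIBB/ΔIBB, and its gene fell by 0.17. Ankrd11-204, from the gene of a chromatin regulator, changed by -1.23 ± 0.24 (adjusted P = 0.0248, edgeR) from 1.29 to 1.73 TPM in WT to 0.516 to 0.803 TPM in ΔIBB/ΔIBB, against a gene change of 0.16.

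**Figure D5:**
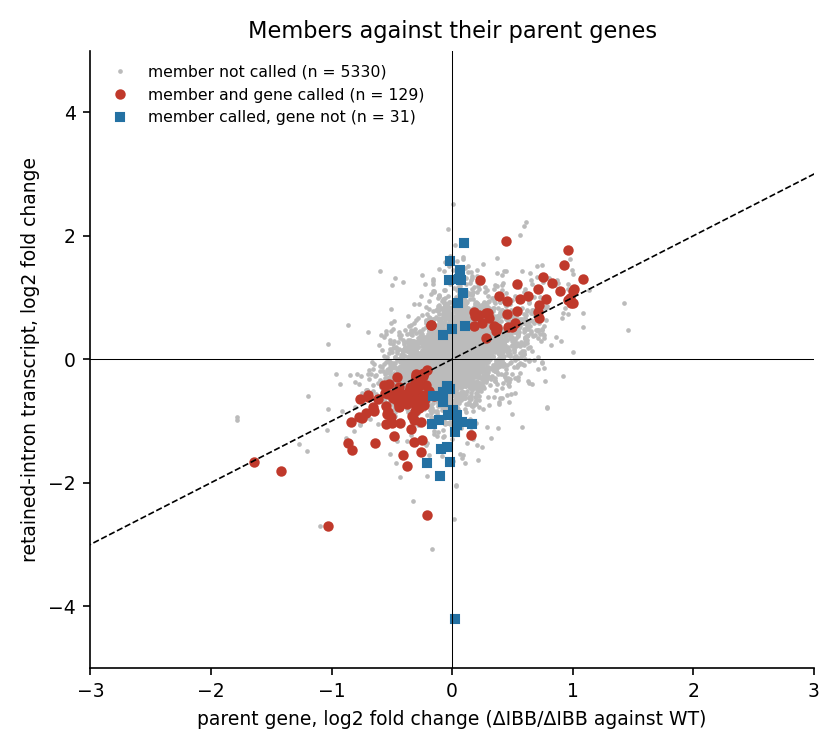
Log2 fold change of each tested member (y axis) against that of its parent gene (x axis), ΔIBB/ΔIBB against WT, with the line of equal change dashed. Of the called members, 126 have a gene called in the same direction and 3 one called in the opposite direction (red), and 31 have a gene that was not called (blue).

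The share of the parent gene was tested on its own, as the log2 ratio of the member's TPM to that of the other transcripts of the gene. No member of 6082 was called in ΔIBB/ΔIBB against WT (limma with Benjamini-Hochberg adjustment, background 0.00506%), and edgeR's diffSpliceDGE called 14. Of the 6082, 606 had an unadjusted P below 0.05 (limma), where 4403 of all 39519 transcripts tested (11.1%) had one. The smallest adjusted P was 0.0981. In counts simulated for this comparison, the share test recovered 2 of 50 transcripts changed 2-fold and 33 of 50 changed 4-fold. Most 2-fold changes would thus be missed by the share test. The adjusted P was 0.136 for Tmem120a-203, 0.148 for Tra2a-203, 0.178 for Wnk1-208 and 0.189 for Vps36-202 (limma), so that these shares, though separated between the groups, did not pass a test over all transcripts.

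The directions were also counted by class, and differences between the classes were not tested. Of 1853 whole-intron members tested, 35 were higher and 28 lower in ΔIBB/ΔIBB than in WT, where 3.93% of all transcripts were higher and 5.8% lower. The split was 2 and 33 of 1315 for members that end in an intron, 12 and 29 of 1488 for those that start in one, and 5 and 16 of 807 for those that do both. With library size only, the 4 splits were 53 and 20, 9 and 30, 19 and 24, and 5 and 10. With limma on log2(TPM + 1), they were 59 and 15, 19 and 22, 47 and 25, and 13 and 9, so that the direction turned for both classes that start in an intron. In ΔIBB/ΔIBB against -/-, with TMM scaling, all 4 classes had more calls lower, at 18 and 35, 1 and 27, 9 and 23, and 2 and 12, where 2.41% of all transcripts were higher and 4.94% lower. There the direction of the whole-intron members turned with library size only (34 and 22) and with limma (32 and 13), and limma also turned both classes that start in an intron, to 43 and 17 and to 9 and 6. The summed levels did not separate the classes. Whole-intron members stood at 9531 ± 132 TPM in WT, 10194 ± 196 TPM in ΔIBB/ΔIBB and 9641 ± 120 TPM in -/- testes, and those that end in an intron at 8864 ± 370 TPM, 9266 ± 187 TPM and 8750 ± 102 TPM, with all ΔIBB/ΔIBB testes above all others in both. The means of the members that start in an intron and of those that do both were highest in ΔIBB/ΔIBB as well, at 13630 and 5899 TPM. The former overlapped with -/- but not with WT testes, and the latter with WT but not with -/- testes. These sums are on the TPM scale, on which the median of all transcripts was higher too.

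The second comparison, -/- against WT, asks about the loss of importin α7 outside germ cells. No member of 5400 was called (edgeR, background 0.0561%), DESeq2 called 7, and the smallest adjusted P in edgeR was 0.154. Of the 5400, 216 had an unadjusted P below 0.05 (edgeR), where 3350 of all 46346 transcripts tested (7.23%) had one. By share, none of 6074 was called with limma (background 0.0104%), and diffSpliceDGE called 3. Of the 6074, 291 had an unadjusted P below 0.05 (limma), where 2182 of all 38505 transcripts tested (5.67%) had one. Of the parent genes 66 (1.88%) were called, against 1.6% of all genes, a number that ran from 14 without -/- replicate 1 to 90 without WT replicate 1 and was 18, 32, 27 and 28 without -/- replicates 2 and 3 and WT replicates 2 and 3. In the simulation for ΔIBB/ΔIBB against WT, 16 of 50 changed transcripts were recovered by level at 2-fold and 39 of 50 at 4-fold. By share, 2 of 50 were recovered at 2-fold and 33 of 50 at 4-fold. These were transcripts of all classes, and the rate for members alone was not measured.

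Several members near Kpna6 on chromosome 4 were low in both mutants. S100pbp-212, 0.464 Mb from Kpna6, read 2.13, 3.82 and 3.94 TPM in WT and 0, 0.557 and 0 TPM in ΔIBB/ΔIBB, with 0, 0.372 and 0 TPM in -/- testes. Mean estimated counts were 32.0, 1.81 and 1.28, at or near the limit of detection in the mutants, so no fold is given. The call against WT had an adjusted P of 0.0435 in ΔIBB/ΔIBB and 0.323 in -/- testes (edgeR), and the gene as a whole changed by 0.03 and -0.05. Hdac1-204, 0.101 Mb away, from the gene of a histone deacetylase, read 1.87, 3.48 and 3.77 TPM in WT, 0.738, 0.606 and 0.170 TPM in ΔIBB/ΔIBB and 0.535, 0.150 and 0.168 TPM in -/- testes. No mutant value reached those of WT (ΔIBB/ΔIBB -2.70 ± 0.56, adjusted P = 0.029, edgeR), and the gene fell in both, by 1.03 and 1.07 on the log2 scale (adjusted P = 7.72e-05 and 0.000357). Neither member call held with a replicate block (adjusted P = 0.0918 and 0.104, edgeR) or without single testes (up to 0.137 and 0.101, both without WT replicate 2). Dcdc2b-202, 0.0347 Mb away, read 12.6, 19.3 and 24.2 TPM in WT, 7.21, 5.68 and 6.14 TPM in ΔIBB/ΔIBB and 8.96, 7.82 and 8.40 TPM in -/- testes (ΔIBB/ΔIBB -1.66 ± 0.28, adjusted P = 0.0156, edgeR). In -/- testes the member did not pass (adjusted P = 0.400, edgeR). Its gene changed by -1.64 in ΔIBB/ΔIBB and -1.17 in -/- testes (adjusted P = 7.64e-05 and 0.00393, edgeR). The member's share of the gene was 59.4% in WT, 58.4% in ΔIBB/ΔIBB and 60.7% in -/- testes. For S100pbp-212, Hdac1-204 and Dcdc2b-202, WT replicate 1 lay between the mutants and the other WT testes. It was the lowest WT testis for Kpna6 too, and the cause was not tested. Within 10 Mb of Kpna6, 5 of 78 members tested (6.41%) were called in ΔIBB/ΔIBB against WT and 155 of 5412 (2.86%) elsewhere, where 9.73% of all transcripts were called. The share of all transcripts within the window was not counted. Of these 5, named here after their values were seen, the others were Kdm1a-209, which was lower, and Rsrp1-204, which was higher. In the same window 0 of 80 were called in -/- against WT. In ΔIBB/ΔIBB against -/- it was 1 of 76 (1.32%), with 126 of 5401 (2.33%) elsewhere and 7.35% of all transcripts. The window was chosen with earlier results of these data known.

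Kpna6 itself has 2 members. Kpna6-204 read 2.17, 2.04 and 3.36 TPM in WT, 1.45, 0.702 and 2.06 TPM in ΔIBB/ΔIBB and 0.492, 1.26 and 0.983 TPM in -/- testes. Kpna6-205 read 1.13, 1.88 and 1.01 TPM, 1.00, 0.305 and 1.02 TPM, and 0.753, 1.43 and 0.758 TPM in the same order. The groups of Kpna6-205 overlapped, and neither was called. Since the gene fell while these did not pass, their share in ΔIBB/ΔIBB was 4.16% ± 1.95 and 2.32% ± 1.24, against 1.79% ± 0.490 and 0.957% ± 0.335 in WT (adjusted P = 0.328 and 0.318, limma). With 5.41 to 14.9 mean counts they are close to the limit of what this depth can resolve.

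The third comparison, ΔIBB/ΔIBB against -/-, sets the 2 mutants side by side. It shares the ΔIBB/ΔIBB testes with the first, so the calls of both are not independent. Called were 127 of 5477 members (2.32%), 30 higher and 97 lower in ΔIBB/ΔIBB, against 7.35% of all transcripts tested, 2.41% higher and 4.94% lower (edgeR). They came from 125 genes and 33 members differed more than 2-fold. With limma on log2(TPM + 1) the split was 96 higher and 52 lower. Without single testes the count was 54, 58 and 82 (ΔIBB/ΔIBB replicates 1, 2 and 3) and 52, 46 and 56 (-/- replicates 1, 2 and 3). The parent gene was called in the same direction in 101 of the 127, not called in 24 and opposite in 2, Dnah10-204 and Ergic2-204, both higher in ΔIBB/ΔIBB. Of the parent genes 1273 (36.3%) were called, against 30.3% of all genes.

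Several members repeated here the difference they had from WT, as the values given above show: Tra2a-203 (-1.46 ± 0.09, adjusted P = 0.00102, the smallest of all members), Tmem120a-203 (-1.79 ± 0.20, adjusted P = 0.00417), Hspa4l-207 (-0.50 ± 0.04, adjusted P = 0.00206) and Vps36-202 (-0.74 ± 0.10, adjusted P = 0.00814), all by edgeR. Otud4-205, from the gene of a deubiquitinase, had the largest fall. It read 1.53, 2.02 and 1.41 TPM in ΔIBB/ΔIBB and 7.26, 8.92 and 7.88 TPM in -/- testes, with WT between them at 5.29, 2.65 and 5.66 TPM (-2.38 ± 0.25, adjusted P = 0.00331, edgeR, gene -0.45). Camsap3-211, from the gene of a microtubule minus-end protein, keeps intron 10 printed above. It read 1.55, 0.443 and 0.591 TPM in ΔIBB/ΔIBB, 4.27, 2.60 and 3.70 TPM in -/- and 1.30, 4.21 and 3.41 TPM in WT testes, so that one WT testis lay within the ΔIBB/ΔIBB range (against -/- -2.17 ± 0.46, adjusted P = 0.0379, edgeR). It overlaps Xab2 on the opposite strand. Rap1gap-209 was also among the 5 largest falls, at -1.67 ± 0.37. Without single testes the calls of Camsap3-211 and Rap1gap-209 were lost (adjusted P up to 0.114 and 0.143, without -/- replicates 1 and 2, edgeR).

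On the higher side stood Rpusd3-203, Kit-205, Tubb5-204, Axl-206 and Sparc-203. Kit, the receptor for stem cell factor, marks spermatogonia and also Leydig cells, Tubb5 encodes a β-tubulin, and Sparc a matrix glycoprotein. Rpusd3-203 read 2.56, 2.19 and 3.06 TPM in ΔIBB/ΔIBB, 0.552, 0.623 and 0.562 TPM in -/- and 0.731, 1.17 and 1.30 TPM in WT testes (against -/- 2.11 ± 0.33, adjusted P = 0.0137, edgeR). Tubb5-204 read 3.19, 3.88 and 3.46 TPM in ΔIBB/ΔIBB, 1.06, 0.985 and 0.686 TPM in -/- and 2.10, 0.471 and 1.42 TPM in WT testes (1.82 ± 0.26, adjusted P = 0.00993, edgeR). The genes of all 5 were higher too, by 0.34 to 0.70, and so were all 12 Sertoli cell markers, whose part was not tested. Without single testes only the call of Tubb5-204 held among these 5 (the highest adjusted P was 0.0577 for Rpusd3-203, without -/- replicate 3, 0.158 for Kit-205, 0.173 for Axl-206 and 0.175 for Sparc-203, each without ΔIBB/ΔIBB replicate 2, edgeR), and that call had an adjusted P of 0.0541 with all 9 samples in 1 edgeR fit. Dnah10-204, from the gene of an axonemal dynein heavy chain, read 4.54, 4.51 and 4.42 TPM in ΔIBB/ΔIBB and 3.10, 2.97 and 3.02 TPM in -/- testes (0.44 ± 0.06, adjusted P = 0.00832, edgeR), while its gene fell by 0.25. By share, 528 of 6080 members had an unadjusted P below 0.05 (limma), where 3886 of all 39435 transcripts tested (9.85%) had one. After adjustment, 1 member of the 6080 was called with limma (background 0.038%). It was Cbx7-209, a 148 nt transcript of a Polycomb gene, at 2.74, 3.15 and 2.75 TPM in ΔIBB/ΔIBB, 0 in all 3 -/- testes and 1.46, 1.13 and 1.41 TPM in WT, which stood for 2.18, 0 and 1.06 mean estimated counts. The call (adjusted P = 0.0314, limma) rests on these few reads and was lost when any 1 of the 6 testes was left out, with an adjusted P of up to 0.198 without -/- replicate 3.

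By function, a member was found for 74 of 145 splicing-factor genes with at least 1 TPM (51.0%), against 3507 of 16710 genes (21.0%). The other 8 lists all lay above the figure for all genes too, from 21.5% of sperm and spermatid genes to 35.3% of translation factor, 38.9% of RNA decay and 43.5% of chromatin regulator genes. Among genes with an annotated retained-intron transcript, the figures were 85.1% for splicing factors, 59.1% to 75% for the other lists and 56.0% for all genes. The TPM threshold enters these shares, which are a description with no test. Their 178 members had a median of 3.58 TPM, and the most abundant were Hnrnpk-217, at 52.9 to 64.1 TPM over the 9 testes, and Srsf5-212, at 52.0 to 72.9 TPM. In ΔIBB/ΔIBB against WT, where 2.91% of all members tested and 9.73% of all transcripts were called, none of 163 tested was higher and 1 was lower, Tra2a-203. Against -/- testes 2.32% of all members tested and 7.35% of all transcripts were called. There 0 of 162 were higher and 2 lower, Tra2a-203 and Rbm28-203 (-0.58 ± 0.13, adjusted P = 0.044, edgeR), of which Rbm28-203 was lost without single testes (up to 0.132, without -/- replicate 2). The median log2 change of the splicing-factor members against WT was 0.01, that of all transcripts.

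The calls of the other lists in ΔIBB/ΔIBB against WT stand beside 2.91% of all members and 9.73% of all transcripts. None was called among 25 tested members of RNA decay genes, 65 of sperm and spermatid genes, 21 of meiosis genes, 29 of nuclear transport genes or 57 of ribosomal protein genes. Of 48 in translation factor genes 3 were lower, Eef1g-205 (-0.93), Eif4g1-210 (-0.52) and Eif5b-202 (-0.28). Of 84 in chromatin regulator genes 2 were lower, Hdac1-204 and Kdm1a-209 (-1.01), and 1 higher, Hdac3-203 (0.77). Of 168 in ubiquitin and proteasome genes 3 were lower, Fbxl13-203, Cul5-206 and Trim39-204, and 1 higher, Trim7-204 (0.59). The median log2 change was -0.12 for sperm and spermatid genes, -0.16 for nuclear transport, 0.12 for RNA decay and 0.12 for chromatin regulators, against 0.01 for all transcripts. In ΔIBB/ΔIBB against -/-, 2.41% of all transcripts were called higher and 4.94% lower. There Dnah10-204 was the 1 sperm gene member called of 67 tested, and the calls were 0 higher and 1 lower of 50 in translation factor genes, 1 and 1 of 82 in chromatin regulator genes and 1 and 4 of 166 in ubiquitin and proteasome genes. No list had a call in -/- against WT. The members called in these lists were named after their values were seen.

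Some members switched between 0 and a clear level within a genotype. In 362 members (5.91%) at least 1 testis was listed at 0, against 3.06% of protein-coding transcripts at the same threshold, and in 243 (3.97%) a testis at 0 stood beside one of at least 2 TPM in the same group, against 1.98%. The sequence that tells a member from its sister transcripts is short: the median number of bases in no exon of another transcript of the gene was 225, or 29.2% of the length, and it was under 100 in 1732 members (28.3%) and 0 in 538. For these the level depends on how reads were shared out between overlapping transcripts.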

How the data were processed

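Poly(A) RNA of 9 whole testes was sequenced by the authors. As deposited, each file gives an estimated count and a TPM value per transcript, made with kallisto (0.45 in the submitters' processing notes, whereas the study's methods name another version), which splits shared reads between transcripts. The release of the transcript set and any strand setting are not given in the sources used here. By identifier, 95301 of 96626 transcripts (98.6%) matched GENCODE M21, and 98.9% of the retained-intron transcripts had the annotated length. Groups follow the genotype labels. The labels do not say whether replicates are separate animals, so P values measure the spread between these samples, which may be technical.

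Rounded estimated counts of all transcripts were tested with edgeR 4.0.16 (filterByExpr, TMM, glmQLFTest) over the 6 testes compared, and counts summed per gene in the same way. Shares were tested with limma 3.58.1 (trend, robust) on log2((TPM + 0.5)/(TPM of the rest of the gene + 0.5)) where both had a mean of at least 0.5 TPM. P values were adjusted by Benjamini-Hochberg over all features, and called means below 0.05. DESeq2 1.42.0, diffSpliceDGE, limma on log2(TPM + 1), other filters, offsets and scalings, a replicate block, all 9 samples in 1 fit and leaving out each testis were alternatives. In counts simulated for ΔIBB/ΔIBB against WT, with 200 of 44888 transcripts changed, the level test recovered 16, 39, 42 and 43 of 50 at 2-, 4-, 8- and 16-fold, with 16 false calls. The share test recovered 2, 33, 37 and 43 of 50, with 11 false calls outside the genes of the changed transcripts. Exon structures and sequences are those of GENCODE M21.

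The members and lists were chosen with earlier results of these data known. Named were the 10 members of highest mean TPM, the 5 of highest share in genes of at least 5 TPM, the 5 largest called changes without overlap per direction and comparison, by level and by share, and the members of Kpna6. Of the splicing factors and of up to 3 members of each other list by TPM, which the rule also names, the text gives the most abundant and those called. Some members that the rule names are not reported here.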

Additional observations from a re-analysis of the deposited data

Results flagged for a closer look

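Among the 237 members that the naming rule covers, 6 had every ΔIBB/ΔIBB testis beyond all WT testes on one side and every -/- testis beyond them on the other, as had 36 of all 6121 members. The naming rule itself picks members called without overlap between groups, so these counts cannot be set against each other. The share over all transcripts was not counted. With the same WT testes on both sides, the difference between the mutants' effects is the third comparison, ΔIBB/ΔIBB against -/-. There Tmem82-203, Otud4-205, Rpusd3-203 and Sparc-203 were called by level and Cbx7-209 by share. As given above, the calls of Rpusd3-203, Sparc-203 and Cbx7-209 did not hold without single testes. For Tmem82-203 the mean level differed from WT by -9.49 TPM in ΔIBB/ΔIBB and by 6.29 TPM in -/- testes. For Otud4-205 the differences were -2.88 and 3.49 TPM. For Rpusd3-203 they were 1.53 and -0.490 TPM, for Sparc-203 1.41 and -0.151 TPM, and for Cbx7-209, which rests on few reads, 1.55 and -1.33 TPM. Srsf1-203, from the gene of a splicing factor, read 10.8, 9.46 and 10.3 TPM in WT, 11.4, 11.3 and 11.3 TPM in ΔIBB/ΔIBB and 8.62, 8.56 and 8.99 TPM in -/- testes, differences of 1.13 and -1.48 TPM, and was called in no comparison. Both differences are taken against the same 3 WT testes.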

How the results depend on the processing

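The share of members called in ΔIBB/ΔIBB against WT was 0.646% at under 50 mean counts and 18.7% at 500 or more, and with 3 testes a group many calls were lost without single samples. Of the 38 called results of named members, 20 were called in every alternative with all samples that gave an adjusted P, 17 of them also without any one sample, and 0 changed direction. DESeq2 gave an adjusted P for only 26 of these results. For the counts the cause of each shift was not tested.

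By level, ΔIBB/ΔIBB against WT (160 members called) gave 66 with a replicate block, 247 with all 9 samples in 1 fit and 53 to 110 without single testes, and the splits of higher and lower were 82 and 152 with DESeq2, 86 and 84 with library size only and 139 and 71 with limma. In -/- against WT, DESeq2 called 7 and leaving out single testes gave 0 to 1. In ΔIBB/ΔIBB against -/- (127), the block gave 60 and leaving out single testes 46 to 82, with splits of 49 and 131 with DESeq2, 55 and 72 with library size only and 96 and 52 with limma. By share, ΔIBB/ΔIBB against WT had 7 calls with all 9 samples and 14 with diffSpliceDGE. In -/- against WT there was 1 with an offset of 0.1 TPM and there were 3 with diffSpliceDGE. In ΔIBB/ΔIBB against -/- there were 0 with an offset of 1 TPM, with the block and at a threshold of 2 TPM, 0 to 0 without single testes, 3 with all 9 samples and 14 with diffSpliceDGE. Of the parent genes in -/- against WT, 110 were called with no filter and 14 to 90 without single testes. The summed level at a threshold of 2 TPM was 33888 TPM in WT, 35350 TPM in ΔIBB/ΔIBB and 33796 TPM in -/- testes, and over all transcripts of the class 40297, 42620 and 40073 TPM.

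The labels number the replicates 1 to 3 in each genotype. Over the members, same-numbered testes did not deviate together (correlations from -0.042 to 0.018, and 2 of 18 correlated best with their own number). Members vary much between testes, so these correlations cannot decide whether same-numbered testes were handled together. In each genotype replicate 3 had the lowest sum of elongating spermatid markers (72288 TPM in WT, 60591 TPM in ΔIBB/ΔIBB and 80776 TPM in -/-). It also had the highest sum of round spermatid markers (1631, 1416 and 1534 TPM). In the other marker lists no replicate number was highest or lowest in all 3 genotypes. Whether the numbers stand for pairs was not tested further. Among the parent genes the block gave 1499 calls in ΔIBB/ΔIBB against WT, 46 in -/- against WT and 1351 in ΔIBB/ΔIBB against -/-.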
